A study of Mus musculus with 4 samples.

Results

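The genes described here are the nuclear receptor gene Rora and 8 genes of the circadian clock, Nr1d1, Nr1d2, Nfil3, Arntl, Clock, Dbp, Per2 and Cry1. They were chosen by symbol for their roles, and all 9 were found among the 27179 genes of the table. RNA was sequenced from lymphoid tissue inducer (LTi) cells, a kind of innate lymphoid cell (ILC) of group 3, sorted from the small intestine lamina propria of C57BL/6 mice. They are labelled as lineage-negative cells positive for CD127 and CCR6 and negative for KLRG1, NK1.1 and NKp46. The 2 control libraries came from Gata3+/+ mice, and the 2 Gata3-KO libraries came from Gata3fl/fl mice carrying VavCre, in which Cre is made in cells of the blood lineages and not in LTi cells alone. The labels do not say whether the controls carried Cre or whether the replicates were separate animals, so the p-values cover the spread among these 4 libraries alone, part of which may be technical. No source used here gives the age of the mice or the hour of collection, on which clock genes depend.

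The clock is a feedback loop of transcription. ARNTL and CLOCK bind E-box sites and switch on the genes of their own repressors, the PER and CRY proteins, and those of DBP and of the REV-ERB receptors, which Nr1d1 and Nr1d2 encode. REV-ERB receptors and RORα, the product of Rora, compete for the same sites (ROREs), where REV-ERBs repress and RORα activates, and Arntl and Nfil3 are known targets of that competition. DBP and NFIL3 compete in a like manner for D-box sites. In innate lymphoid cells RORα and NFIL3 are known for roles in development, and REV-ERBα for a role in the function of group 3 cells.

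Short stretches of promoter show where letters of these sites were found among the members. The 250 bases before each start of a RefSeq transcript (GRCm38.p6) were searched on both strands for motifs of the factors above. The cores of the RORE were searched as TAGGTCA and also as TGGGTCA. The shorter nuclear receptor motif AGGTCA is held within the first of these. The E-box was searched as CACGTG, the D-box as TTANGTAA, and the motif of GATA3 and its family as AGATAA. RefSeq promoters were matched for 8 members, all but Per2. Capitals mark the motif, and the strand is that of the gene, so TGACCT is AGGTCA on the other strand.
Nfil3: ggcgctcggaacTGACCTActaac
Nr1d2: gattggaagaagAGGTCAggaccgctcgt
Clock: agctttggcctcTGACCTgacagatgaca
Cry1: ggtgccggtggtCACGTGgggtgcatgcc
They lie at chr13:52981040-52981063, chr14:18239167-18239195, chr5:76303605-76303633 and chr10:85185098-85185126, each on the minus strand. Nfil3 was the 1 member of 8 with TAGGTCA, which 2.55% of 27025 genes held in at least 1 promoter. Its motif lies 12 bases before the RefSeq transcript start at 52981039. That start is inside the outer bounds of the gene given below, and the stretch is within an exon of Nfil3 in GENCODE M21, so it is not upstream of every annotated start. AGGTCA was found in Nfil3, Nr1d2 and, at the innermost of its 3 starts, Clock, and in 15.76% of all genes. CACGTG was found in Cry1 and in 6.86% of genes. No member held TGGGTCA, TTANGTAA or AGATAA in this window, which 3.73%, 2.44% and 11.43% of genes held.

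The libraries differed in depth and makeup. Control libraries held 14294708 and 12670034 reads and Gata3-KO libraries 24315878 and 23973995. Slc29a3 alone took 17.18% and 27.08% of control reads against 7.87% and 7.61% in Gata3-KO, and the median tested gene lay 0.43 log2 units higher in Gata3-KO on the deposited scale, which adjusts only for library totals. The difference of each of the 9 genes is therefore also given after median-ratio scaling, which puts the median gene near 0 (0.04). Gata3 was at 84.3 and 50.7 RPKM (reads scaled by gene length and by library total) in control and 34.5 and 23.3 RPKM in Gata3-KO libraries, and its log2 difference of -1.18 did not pass (adjusted p = 0.0901 in limma, and -1.76 and 0.0787 after median-ratio scaling). All 12 LTi markers looked up were detected. Their summed level was 2828 to 4210 RPKM in control and 1324 to 1713 RPKM in Gata3-KO libraries, but without Il22 the other 11 summed to 1308 to 1809 and 1196 to 1427 RPKM, which overlap. Of the 12, 2 were called lower and 0 higher. Markers of other cells were present too. The 7 B and plasma cell markers summed to 191 to 382 RPKM in control and 1838 to 3495 RPKM in Gata3-KO libraries and all 7 were called higher (1 after median-ratio scaling). The 6 epithelial markers summed to 118 to 185 and 824 to 1146 RPKM with 5 called (3 after that scaling), the 6 T cell markers to 62.4 to 75.4 and 201 to 683 RPKM with 3 called (0), and the 6 myeloid markers to 434 to 654 and 238 to 398 RPKM with 0 called. Fcer1g made up most of the myeloid sum, and the other 5, all with positive log2 differences, summed to 31.1 to 43.7 and 32.2 to 171 RPKM. No marker in these lists was under 3 reads in every library. Their part in the differences below was not tested, and in these bulk samples fewer LTi cells and less RNA per cell cannot be told apart.

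None of the 9 genes passed limma's test between genotypes (Benjamini-Hochberg adjusted p under 0.05), where 9.04% of 14222 tested genes did. All 9 had entered the test. At an unadjusted p under 0.05 there were 2, Rora, which was lower in Gata3-KO cells, and Nr1d1, which was higher, against 30.6% of tested genes. After median-ratio scaling again 0 of 9 passed in limma, against 1.04% of tested genes (0.605% higher, 0.436% lower), with 4 at an unadjusted p under 0.05 (Rora, Nfil3, Nr1d2 and Arntl, each lower), against 22.7%. Limma-voom on recovered reads called 0 of 9 on the deposited scale, and with median-ratio scaling it called 1, Rora, against 0.64% of tested genes (0.45% lower).

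Rora (Entrez 19883, chromosome 9: 68653404 to 69388246, GRCm38) codes for the activating receptor of ROREs. It stood at 1171 and 867 RPKM in the controls against 459 and 560.0 RPKM in Gata3-KO. Both Gata3-KO libraries lay below both controls. The means were 1019 ± 215 and 510 ± 71.2 RPKM (SD, n = 2), a 2.00-fold lower level in Gata3-KO cells, and among 27179 genes Rora ranked 36 and 40 by RPKM in control and 138 and 104 in Gata3-KO libraries. The log2 difference was -0.99 ± 0.33 (SE, adjusted p = 0.11 in limma), and 2.0% of tested genes had a lower one. After median-ratio scaling the libraries stood at 1361 and 1128 against 391 and 434 RPKM, a 3.01-fold lower level, with a log2 difference of -1.59 ± 0.23 (adjusted p = 0.0572 in limma). Limma-voom with that scaling gave the same -1.59 with an adjusted p of 0.0465, where the alternatives for Rora ranged from 0.0465 to 0.4135. When each library in turn was left out, the deposited-scale difference stayed between -1.21 and -0.77.

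The REV-ERB genes lay on opposite sides of 0. Nr1d1 (Entrez 217166, chromosome 11: 98767932 to 98775377), which codes for REV-ERBα, stood at 55.1 and 46.9 RPKM in the controls against 81.1 and 113 RPKM in Gata3-KO. Both Gata3-KO libraries were above both controls. The log2 difference was 0.90 ± 0.29 (adjusted p = 0.102 in limma), and after median-ratio scaling it was 0.31 ± 0.22 (adjusted p = 0.46 in limma), with 64.1 and 61.01 against 69.1 and 87.8 RPKM, still without overlap. Nr1d1 shares 263 exonic bases with Thra, the thyroid hormone receptor gene on the other strand, and no source states that reads were counted by strand. Thra itself stood at 2.27 and 0.843 RPKM in the controls against 5.82 and 4.44 RPKM in Gata3-KO, under Nr1d1. Like Nr1d1 it was higher in both Gata3-KO libraries on both scales, with log2 differences of 1.31 (adjusted p = 0.092 in limma) and 0.90 after median-ratio scaling. The part of shared reads in the values of Nr1d1 was not tested.

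Nr1d2 (Entrez 353187, chromosome 14: 18204056 to 18239106) codes for REV-ERBβ. It was measured at 20.8 and 13.6 RPKM in the controls against 13.6 and 12.7 RPKM in Gata3-KO. The groups did not overlap, but control replicate 2 (13.64 RPKM) and Gata3-KO replicate 1 (13.62 RPKM) were almost equal. Its log2 difference was -0.34 ± 0.31 (adjusted p = 0.506 in limma) and -0.89 ± 0.27 after median-ratio scaling (adjusted p = 0.148 in limma). On the deposited scale it was -0.05 without control replicate 1 and -0.62 without control replicate 2.

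**Figure D1:**
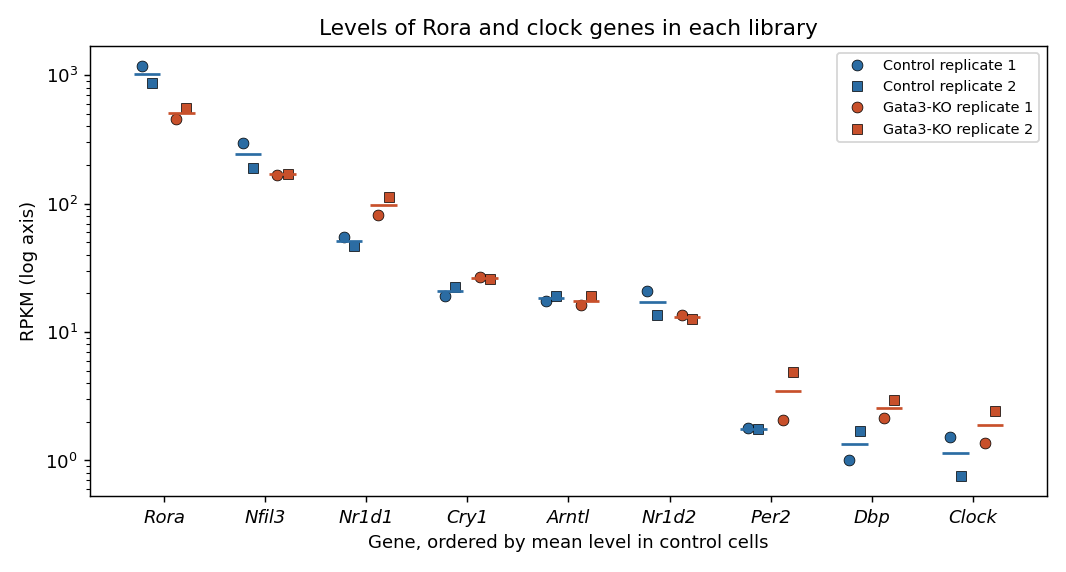
RPKM of the 9 genes on a log axis in the 4 libraries, with circles for replicate 1, squares for replicate 2, blue for control and red for Gata3-KO, and lines at the group means (n = 2 each). Rora is the highest in every library, with 867 to 1171 RPKM in control and 459 to 560.0 RPKM in Gata3-KO cells, and Nr1d1 is the gene of the upper 3 whose Gata3-KO points lie above its controls.

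NFIL3 and DBP bind D-box sites, NFIL3 as a repressor and DBP as an activator. Nfil3 (Entrez 18030, chromosome 13: 52967209 to 52982878) stood at 295 and 190 RPKM in the controls against 168 and 171 RPKM in Gata3-KO. The Gata3-KO libraries were close together and lay below both controls, which differed more (SD of 74.2 against 1.84 RPKM). The log2 difference was -0.48 ± 0.32 (adjusted p = 0.356 in limma) and -1.07 ± 0.25 after median-ratio scaling (adjusted p = 0.0987 in limma), where the mean was 2.14-fold lower. On the deposited scale the difference was -0.16 without control replicate 1 and -0.80 without control replicate 2.

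Dbp (Entrez 13170, chromosome 7: 45705100 to 45710203) was low, at 1.00 and 1.69 RPKM in the controls against 2.16 and 2.98 RPKM in Gata3-KO. It was higher in both Gata3-KO libraries, and after median-ratio scaling the groups overlapped. These values rest on few reads, 12 and 18 in control and 44 and 60 in Gata3-KO libraries as the smallest whole numbers the values allow, whose multiples would serve as well. The log2 difference was 0.61 ± 0.35 (adjusted p = 0.286 in limma) and 0.22 ± 0.34 after median-ratio scaling, and 0.40 on the deposited scale without control replicate 1. Dbp shares 539 exonic bases with Sphk2, a sphingosine kinase gene on the other strand that stood at 26.4 to 84.7 RPKM, so the values of Dbp are uncertain.

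ARNTL (also called BMAL1) and CLOCK form the activator of the loop. Arntl (Entrez 11865, chromosome 7: 113178471 to 113314126) stood at 17.5 and 19.1 RPKM in the controls against 16.1 and 18.9 RPKM in Gata3-KO. The groups overlapped, and the log2 difference was -0.06 ± 0.27 (adjusted p = 0.905 in limma). After median-ratio scaling Arntl was lower in both Gata3-KO libraries, at 20.4 and 24.8 against 13.7 and 14.7 RPKM, a log2 difference of -0.63 ± 0.23 (adjusted p = 0.208 in limma). Clock (Entrez 12753, chromosome 5: 76209868 to 76305603) was near the bottom of the range, at 1.52 and 0.760 RPKM in the controls against 1.37 and 2.42 RPKM in Gata3-KO. These values came from 163, 72, 249 and 433 reads. The groups overlapped on both scales, with log2 differences of 0.43 ± 0.37 (adjusted p = 0.47 in limma) and 0.09 ± 0.34 after median-ratio scaling. On the deposited scale Clock ranged from 0.17 to 0.70 when each library in turn was left out.

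PER2 and CRY1 are repressors of ARNTL and CLOCK. Per2 (Entrez 18627, chromosome 1: 91415977 to 91459351) stood at 1.80 and 1.74 RPKM in the controls against 2.08 and 4.92 RPKM in Gata3-KO. Both Gata3-KO libraries were above the controls, replicate 2 far more than replicate 1. The log2 difference was 0.62 ± 0.41 (adjusted p = 0.352 in limma), 0.15 without Gata3-KO replicate 2 and 1.096 without Gata3-KO replicate 1. After median-ratio scaling it was 0.20 ± 0.38 (adjusted p = 0.793 in limma), the groups overlapped, and it was -0.19 without Gata3-KO replicate 2. Cry1 (Entrez 12952, chromosome 10: 85131700 to 85185054) stood at 19.1 and 22.3 RPKM in the controls against 26.9 and 25.9 RPKM in Gata3-KO. Both Gata3-KO libraries lay above both controls. Its log2 difference of 0.34 ± 0.26 (adjusted p = 0.424 in limma) turned to -0.23 ± 0.25 after median-ratio scaling, where the groups overlapped.

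Counted together, 3 of the 9 genes (Rora, Nfil3 and Nr1d2) lay lower in both Gata3-KO than in both control libraries on the deposited scale, where 7.58% of tested genes did. Another 4 (Nr1d1, Dbp, Per2 and Cry1) lay higher, against 54.0% of tested genes, so 7 of 9 did not overlap, against 61.5%. After median-ratio scaling 4 were lower (Arntl being added), against 25.6%, and 1 was higher (Nr1d1), against 29.7%, so 5 of 9 did not overlap, against 55.4%. The direction of Cry1 and the separation of Arntl, Dbp, Per2 and Cry1 thus depended on the scaling, while Rora, Nfil3 and Nr1d2 were lower and Nr1d1 higher without overlap on both scales.

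**Figure D2:**
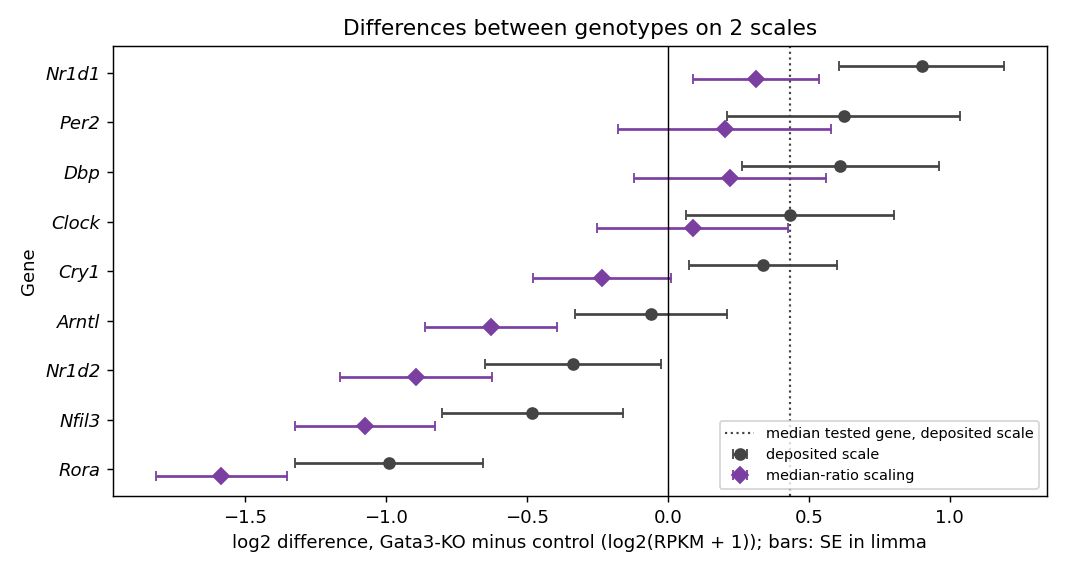
Log2 difference of each gene, Gata3-KO minus control, with its standard error in limma, on the deposited scale (circles) and after median-ratio scaling (diamonds), with a dotted line at the median tested gene of the deposited scale (0.43). Rora lies lowest on both scales (-0.99 and -1.59), Nr1d1 highest (0.90 and 0.31), and Cry1 changes side.

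By mean RPKM the order of the 9 genes was the same in both genotypes, Rora, Nfil3, Nr1d1, Cry1, Arntl, Nr1d2, Per2, Dbp and Clock. In control cells the ranges of Arntl and Nr1d2 overlapped, as did those of Dbp and Clock, and the other neighbours were separate. In Gata3-KO cells Per2 overlapped Dbp and Dbp overlapped Clock. RPKM depends on the gene length used in counting, which was worked out from the values. It lay within 5% of a GENCODE M21 coding transcript for 7 of 9 genes. For Rora it was 1647 bases, against 10878 in the longest GENCODE coding transcript, and for Dbp 839 bases, so the levels of Rora and Dbp against other genes are less certain than their differences between genotypes.

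Ratios within a library need no scaling between libraries, so the RNA of genes whose products compete was compared that way. Such ratios are of bulk RNA and not of protein within a cell. They can also differ with the makeup of cells in a sample, whose part was not tested. The RPKM of Rora was 21.2 and 18.5 times that of Nr1d1 in control libraries and 5.66 and 4.95 times in Gata3-KO libraries. The size of such ratios depends on the uncertain gene length of Rora, while their difference between genotypes does not. The log2 ratio lay below both controls in both Gata3-KO libraries. It was 4.31 ± 0.14 in control and 2.40 ± 0.14 in Gata3-KO cells (SD, n = 2), a 3.74-fold difference. On the deposited scale 98.0% of tested genes had a higher log2 difference than Rora, and 24.77% a higher one than Nr1d1. A fall of Rora relative to another gene is therefore common, and the share of gene pairs that separate in this way was not computed. The ratio of Rora to Nr1d2 differed less, with 56.3 and 63.5 in control and 33.7 and 44.1 in Gata3-KO libraries. Between the REV-ERB genes the ratio lay further to Nr1d1 in Gata3-KO libraries, where Nr1d1 was 5.95 and 8.92 times Nr1d2, against 2.65 and 3.44 times in controls. With 2 libraries against 2, a two-sided exact permutation test cannot give less than p = 0.333, which each of these ratios gave.

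For the D-box pair, Nfil3 RNA was 295 and 112 times that of Dbp in control and 77.9 and 57.2 times in Gata3-KO libraries. The groups did not overlap, but the log2 difference of -1.45 was -0.75 without control replicate 1 and -2.14 without control replicate 2, and Dbp is uncertain as described. Arntl was 9.74 and 10.9 times Per2 in control and 7.75 and 3.85 times in Gata3-KO libraries, a log2 difference of -0.92 that was -0.41 without Gata3-KO replicate 2 and -1.42 without Gata3-KO replicate 1. Its ratio to Cry1 was 0.915 and 0.853 in control and 0.599 and 0.730 in Gata3-KO libraries. Arntl was thus lower relative to Per2 and Cry1 in both Gata3-KO libraries, by amounts that depended on the library for Per2. On the deposited scale 81.68% of tested genes had a higher log2 difference than Arntl, so a fall relative to another gene is common for it. Each of these ratios also gave p = 0.333 in the exact permutation test. The ratio to Per1, a paralog of Per2 at a higher level, was not taken. Per1 lay further below 0 than Arntl, with log2 differences of -0.46 and -0.06 on the deposited scale and overlapping groups for each.

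**Figure D3:**
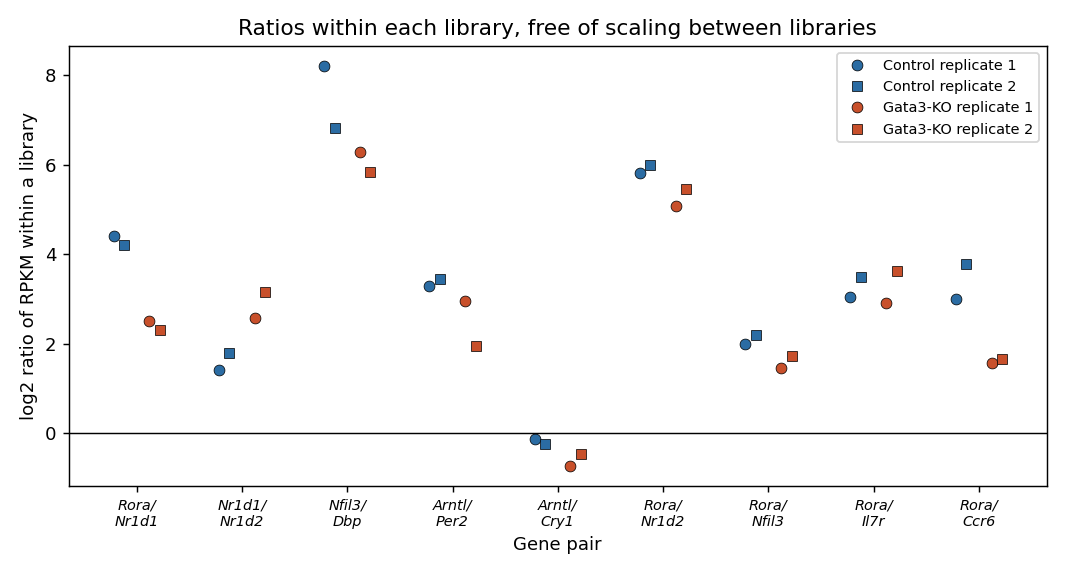
Log2 ratio of RPKM between pairs of genes within each library, with circles for replicate 1, squares for replicate 2, blue for control and red for Gata3-KO. The ratio of Rora to Nr1d1 separates the genotypes (4.41 and 4.21 against 2.50 and 2.31), that of Nr1d1 to Nr1d2 separates them in the other direction, and that of Rora to Il7r overlaps.

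The same ratios were taken against genes of LTi cells, since the markers of other cells differed between the genotypes. Against Il7r, which codes for the CD127 of the sort gate, Rora did not separate the genotypes, with ratios of 8.19 and 11.2 in control and 7.5 and 12.3 in Gata3-KO libraries and a log2 difference of 0.0032. Against Ccr6, which codes for the other positive marker of the gate, Rora stood at 8.03 and 13.7 in control and 2.96 and 3.18 in Gata3-KO libraries. Il7r and Ccr6 themselves lay on opposite sides, with log2 differences of -0.98 and 0.77 that did not pass in limma (adjusted p = 0.14 and 0.274), and of -1.57 and 0.18 after median-ratio scaling. Of the 12 LTi markers, Rora was lower relative to 6 without overlap (Ccr6, Kit, Ltb, Il23r, Cxcr5 and Il1r1), higher relative to 2 (Il22 and Cd4) and overlapped for 4. The median of the 12 log2 differences was -0.61. Among 13085 tested genes with reads in every library, 4.13% were lower relative to 6 or more of the markers, a cut-off equal to the count of Rora itself. The median count over these genes was 0 markers lower and 7 higher, so any gene that falls is unusual by this measure. For Nfil3 the counts were 4 lower, 3 higher and 5 overlapping with a median of -0.10, and for Nr1d2 they were 4, 3 and 5 with a median of 0.03. Nr1d1 was higher relative to 10 of the 12 markers and lower relative to 0, with a median of 1.30. That is common, since 38.6% of the same genes were higher relative to 10 or more, Clock among them with a median of 1.14. This cut-off too equals the count of the gene described. Il22, the interleukin 22 gene, and Cd4 are the 2 LTi markers that fell in limma.

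Other genes of the clock did not pass either, apart from Klf10. The core clock list includes the members Rora, Nr1d1, Nr1d2, Arntl, Clock, Per2 and Cry1, so its counts and median restate their results in part. Of 15 core clock genes, 13 were tested and 0 passed in limma on either scale, with 2 at an unadjusted p under 0.05 on the deposited scale (Rora and Nr1d1, against 30.6% of tested genes), and limma-voom called Rora alone, with median-ratio scaling. Their median log2 difference was 0.28, against 0.43 over all tested genes. Per3, a paralog of Per2, stood at 0.670 and 0.398 RPKM in the controls against 1.098 and 2.65 RPKM in Gata3-KO (log2 difference 0.86, adjusted p = 0.181 in limma, and 0.57 after median-ratio scaling). Cry2, a paralog of Cry1, stood at 10.01 and 8.98 RPKM in the controls against 13.01 and 15.5 RPKM in Gata3-KO, and its log2 difference of 0.53 became -0.02 after median-ratio scaling. Both genes were higher in both Gata3-KO libraries on the deposited scale, as Per2, Cry1 and 54.0% of tested genes were. Per3 remained so after median-ratio scaling, against 29.7% of tested genes. Per1, the other PER gene, was not higher. Its groups overlapped on the deposited scale (-0.46), and it was lower without overlap after median-ratio scaling (-1.05). Rorb, a ROR paralog known from the nervous system and retina, was not tested and stayed at or under 0.0084 RPKM.

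The 12 D-box and E-box output genes and related regulators include the members Dbp and Nfil3. Among the 12, 1 rose and 0 fell, against 8.35% and 0.689% of tested genes called higher and lower. The gene that rose was Klf10, a transcription factor gene induced by TGF-β and controlled by the clock in liver. It stood at 16.1 and 13.2 RPKM in the controls against 43.4 and 49.3 RPKM in Gata3-KO, with a log2 difference of 1.599 ± 0.27 (adjusted p = 0.0271 in limma). After median-ratio scaling it was 1.03 and did not pass (adjusted p = 0.082 in limma). The cell cycle kinase gene Wee1 was low, at 0.327 and 0.946 RPKM in the controls against 2.37 and 1.57 RPKM in Gata3-KO (log2 difference 0.87, adjusted p = 0.156 in limma, and 0.56 after median-ratio scaling). Nampt, of NAD synthesis, and Cipc, which codes for a CLOCK-interacting repressor, differed by 0.49 and 0.45 on the deposited scale and by -0.01 and -0.07 after median-ratio scaling.

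No gene passed in limma on either scale among 14 genes of clock protein kinases, ubiquitin ligases and related enzymes or among 12 co-regulators of nuclear receptors, with 1 and 2 at an unadjusted p under 0.05 on the deposited scale, against the same 30.6%, and limma-voom called 0 of them as well. Their medians were 0.27 and 0.24. After median-ratio scaling the medians of the core clock, output, enzyme and co-regulator lists were -0.23, -0.11, -0.13 and -0.29, against 0.04 over all tested genes. Among 10 genes of group 3 ILCs linked to ROR receptors, Il17a rose and Il22 fell, on both scales. Of all tested genes, 8.35% were called higher and 0.689% lower on the deposited scale, and 0.605% and 0.436% after median-ratio scaling. Il17a, the interleukin 17A gene and a known target of ROR receptors, stood at 14.8 and 9.03 RPKM in the controls against 121 and 122 RPKM in Gata3-KO. Il22 stood at 2401 and 1520 RPKM in the controls against 129 and 287 RPKM in Gata3-KO. The list of 10 thus held called genes in both directions.

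**Figure D4:**
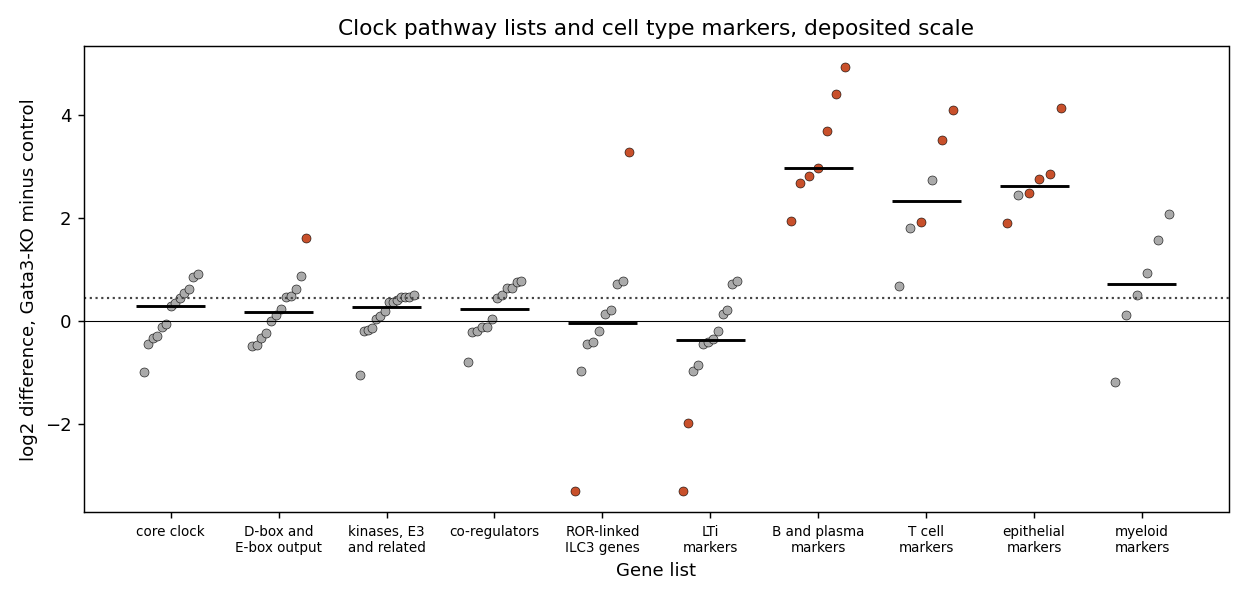
Log2 difference of each tested gene of the clock lists and of the cell type markers on the deposited scale, with a line at each list's median, red for genes that passed in limma and a dotted line at the median tested gene (0.43). The medians of the 4 clock lists lie between 0.17 and 0.28, that of the LTi markers at -0.38, and those of the B and plasma cell, T cell and epithelial markers at 2.97, 2.33 and 2.62.

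Likeness to Rora over the 4 libraries was measured as the Euclidean distance between log2(RPKM + 1) values centred on each gene's own mean. It was taken among 7327 tested genes with at least 10 CPM (reads scaled by library total alone) on average. Predicted genes, pseudogenes and antigen receptor genes were left out. This was done partly by the opening letters of symbols, which also left out some other genes. The nearest were Odc1 (distance 0.06), Tinf2 (0.13), Junb (0.15), Zfp672 (0.15) and Nsd3 (0.16). Odc1, the ornithine decarboxylase gene of polyamine synthesis, stood at 201 and 150 RPKM in the controls against 79.8 and 101 RPKM in Gata3-KO, and Junb, an AP-1 subunit gene, at 12766 and 8626 and at 5264 and 6123 RPKM. Of the 7 other members within that limit (Dbp was under it), Nfil3 was the closest to Rora, at 0.56 and place 240 of the 7327, followed by Nr1d2 at place 453, and Nr1d1 was the farthest, at place 5214. With only 4 libraries many genes share such a pattern, and distances are given as a description.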

How the data were processed

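RNA of sorted LTi cells was made into Smart-seq2 libraries, which carry no molecular identifiers, per the labels' protocols. Subread, featureCounts and mm10 are named in the submitters' processing notes, without version, and no source used here gives the annotation or strand setting. As worked out from the numbers themselves, the deposited table holds log2 of RPKM + 1, to which 0.0001 was added, scaled to each library's total only.

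RPKM and reads were computed back from them. For 99.93% of genes with reads, reads came out whole within 0.001 reads, and in 3 simulated draws, of at least 7897 genes each, the procedure returned all 4 totals and at least 96.4% of genes exactly. A floor of 3 reads was 0.123 to 0.237 CPM, for counting error only. A gene was tested if 2 or more libraries reached 0.5226 CPM and its reads summed to 15 or more. The two-sided test was that of limma 3.58.1 (R 4.3.3, options trend and robust) on the log2 values of 14222 genes, at a threshold of 0.05. On simulated data of 2 against 2 libraries, with 14222 genes, it called 12% of genes changed 2-fold and 90.8% of those changed 4-fold. There 3.06% of calls were false. The simulation gave all genes the same spread beyond counting error, changed few of them and held no difference in makeup between libraries. These shares may therefore not hold for the real libraries. Differences are on the log2(RPKM + 1) scale and understate those of low genes. Means ± SD are of RPKM.

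The members, lists and ratios were chosen with earlier results of these data known. Named are all members, Gata3 and, the marker lists aside, the list genes that passed on either scale. Also named are 5 other clock or output genes by p (Klf10 passed and is not among them) and the 5 genes nearest to Rora. Thra, Sphk2, Rorb, Slc29a3, Per1 and Bhlhe40 and the ratios to Il7r and Ccr6 were added after values were seen. The replicate numbers were not taken as pairs (closing section), and the labels do not say whether they pair the libraries. Symbols and coordinates came from RefSeq (GRCm38.p6), in which 25275 identifiers were found, and exons and lengths from GENCODE M21.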

Additional observations from a re-analysis of the deposited data

How the results depend on the processing

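No member changed its call under any alternative except Rora, which limma-voom called after median-ratio scaling (-1.59, adjusted p = 0.0465), making 1 member called. With 2 libraries a genotype, genes differing 2-fold were mostly missed on simulated data, so a missing call does not show that a gene was equal. The deposited scale gave 1285 calls (1187 higher, 98 lower). Median-ratio scaling gave 148 (86, 62), TMM 179 (112, 67), upper-quartile scaling 187 (120, 67), limma-voom 221 (185, 36), limma-voom with median-ratio scaling 91 (27, 64) and a pseudocount of 0.1 gave 854 (781, 73). A filter of 5 CPM raised the count to 1715 (1582, 133). The replicate block gave 1057 and, with median-ratio scaling, 26 (19, 7). The deviations of libraries with the same replicate number had a correlation of -0.021 over 14222 genes, so the numbers were not taken as pairs. Limma called 0 genes without a filter, with 4336 at an unadjusted p under 0.05, where limma-voom with the filter called 221. Leaving out 1 library gave 0 to 0 calls on the deposited scale (unadjusted p under 0.05 in 2422 to 3816 genes). With median-ratio scaling it gave 4 without control replicate 1, 34 without control replicate 2 and 0 without either Gata3-KO replicate. List genes called, the marker lists not counted, went from 3 to 0 without a filter and in the block with median-ratio scaling. The cause was not tested.

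Differences changed sign as follows, none of them called on either side. Cry1 lay at -0.23 with median-ratio scaling, at -0.22 with TMM, at -0.20 with upper-quartile scaling, at -0.24 with limma-voom and median-ratio scaling, at -0.23 in the block with that scaling, and from -0.44 to -0.07 with that scaling and 1 library left out (-0.44, -0.0669, -0.31 and -0.14). Cry2, Nampt and Cipc changed sign under scalings between libraries only. With median-ratio scaling in every case, Cry2 lay at -0.015 with and without the block, at -0.0165 in limma-voom, and at -0.0339, -0.0296 and -0.0635 without control replicate 1, control replicate 2 and Gata3-KO replicate 2. With the same scaling Nampt lay at -0.0056 with and without the block, at -0.0297 in limma-voom, and at -0.28 and -0.0423 without control replicate 2 and Gata3-KO replicate 1. Cipc lay at -0.0556 with TMM and -0.0417 with upper-quartile scaling, and with median-ratio scaling at -0.0701 with and without the block, at -0.0564 in limma-voom, and at -0.33, -0.0298 and -0.099 without control replicate 1, Gata3-KO replicate 1 and Gata3-KO replicate 2. Arntl lay at 0.049 on the deposited scale without Gata3-KO replicate 1. With median-ratio scaling Clock lay at -0.17 and -0.11 without control replicate 2 and Gata3-KO replicate 2, Per2 at -0.19 without Gata3-KO replicate 2 and Dbp at -0.0759 without control replicate 1. Rora, Nfil3, Nr1d2 and Nr1d1 kept their sign under all 18 alternatives, at -1.74 to -0.77, -1.33 to -0.16, -1.13 to -0.05 and 0.14 to 1.14.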

Other observations

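Bhlhe40 and Per1, of the clock lists, were singled out for their high levels after their values were seen. Bhlhe40, which codes for a basic helix-loop-helix repressor of E-box genes, stood at 1318 and 725 RPKM in the controls against 740.2 and 815 RPKM in Gata3-KO, the range of Rora, and the groups overlapped (log2 difference -0.33, adjusted p = 0.608 in limma). Per1, the other paralog of Per2, stood at 133 and 82.3 RPKM in the controls against 68.5 and 84.6 RPKM in Gata3-KO, far above Per2. Its groups overlapped too (log2 difference -0.46, adjusted p = 0.392 in limma), and after median-ratio scaling both genes were lower in both Gata3-KO libraries without passing (-0.93 and -1.05, adjusted p = 0.174 and 0.11 in limma).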
